A study of Mus musculus with 3 samples.

Results

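Star, a single gene of the 24698 in the merged count table, was followed through days 4, 7 and 14 of an in vitro culture that takes sorted mouse testis cells towards Leydig cells. It was described by its summed level, by the share of cells in which it was detected, and by its detection in the same cells as Cyp11a1, Insl3 and Acta2. The gene was chosen by its measured pattern in these libraries, because its transcript had been seen in myofibroblast-like cells of day 7, so its levels below are a description and were not tested. The gene (ENSMUSG00000031574.8, protein coding) lies on chromosome 8 of GRCm38 from 25806555 to 25815982 on the plus strand and has 2 annotated transcripts in GENCODE M21.

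Star encodes the steroidogenic acute regulatory protein, which brings cholesterol to the inner mitochondrial membrane, where the side-chain cleavage enzyme encoded by Cyp11a1 turns it into pregnenolone. In Leydig cells this delivery is the step that luteinizing hormone controls acutely through cAMP, and Star is therefore widely used as a marker of steroid-making cells. Insl3 encodes a peptide hormone made by Leydig cells and marks their mature state. Acta2 encodes smooth muscle actin, the contractile protein of peritubular myoid cells and of myofibroblasts.

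The source cells were Sca1+/cKit- cells from the testes of adult C57BL/6 males aged 8 to 12 weeks, plated at 100000 cells per well on Matrigel. They recovered for 18 h in serum and were expanded for 3 days with PdgfAA, PdgfBB and Fgf2 (10 ng/ml each) and 0.5 uM SAG, a hedgehog pathway agonist. The differentiation medium kept these factors and added 5 mM LiCl2 and 10 uM DAPT, an inhibitor of gamma-secretase and so of Notch signaling. The labels give this protocol alike for all 3 days, without luteinizing hormone or a cAMP analog in the list. By the account of the study, however, the cells of day 4 had been in expansion medium, and those of days 7 and 14 had moved on to differentiation medium, so that time in culture and the presence of LiCl2 and DAPT cannot be told apart between day 4 and the later days. Each day was read as 1 Drop-seq library, which counts the transcripts of single cells by their unique molecular identifiers (UMIs), and whether a library pools several animals is not said. Cells of a library are not replicates, so no test was made, and a difference between days cannot be told apart from a difference between libraries.

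The merged table held 2980, 2171 and 973 cells of days 4, 7 and 14, with a median of 2886.5, 3285 and 3272 UMIs per cell. No complete cell barcode was shared between days. Within a day, however, many of the barcodes of 12 bases shared their first 11 with at least 1 other cell, namely 1304 cells on day 4 (43.8%), 1026 cells on day 7 (47.3%) and 504 cells on day 14 (51.8%), in sets of up to 4. Pairs of such cells fell in the same cluster in 79.6%, 90.6% and 89.3% of cases on days 4, 7 and 14, against 24.7%, 37.6% and 47.6% of all pairs of cells. Cells that share a start may therefore not be separate cells. Summing such barcodes to 1 leaves 2027, 1414 and 601 cells. The share of cells with Star per day and its co-detection with Cyp11a1 are also given in this way. The other shares below are given without it.

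Star was detected on every day, and its level was higher on each later day. The library of day 4 held 2496 Star UMIs, or 197 CPM (its UMIs over all UMIs of the library, times 1000000, with an exact Poisson 95% interval of 189–205). The library of day 7 held 4204 Star UMIs, or 362 CPM (interval 351–373), and that of day 14 held 5388, or 1012 CPM (interval 985–1039). Day 7 stood at 1.84 times day 4 (interval 1.75–1.93) and day 14 at 2.80 times day 7 (interval 2.69–2.91), so the intervals of the 3 days do not overlap. These intervals, like all others here, cover counting error only. Summing barcodes that share a start leaves these levels as they are, because the UMIs of a day stay the same.

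Cyp11a1 and Insl3 had a different course over the same libraries. Cyp11a1 was at 19.5, 56.8 and 2089 CPM on days 4, 7 and 14, so that day 14 stood at 36.8 times day 7 (interval 34.0–39.9). Insl3 was at 3.39, 7.83 and 1797 CPM, with day 14 at 230 times day 7 (interval 187–285). Both genes thus had most of their UMIs on day 14, while Star was already well detected on days 4 and 7. Acta2 was at 3162, 2831 and 97.1 CPM, in the opposite order to Star.

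The marker lists of the cell types moved with the days as well. The 10 Leydig markers summed to 1048, 886 and 15536 CPM on days 4, 7 and 14, all 10 seen on each day, and the 10 ECM myofibroblast markers to 4849, 7677 and 951 CPM. The 10 macrophage markers summed to 11.4, 28.6 and 241 CPM, in the same order as Star, with C1qa at 0 on days 4 and 7 and C1qb at 0 on day 14. The 6 endothelial markers summed to 88.3, 119 and 35.9 CPM, the 5 Sertoli markers to 27.5, 32.1 and 13.3 CPM, with Amh and Fshr at 0 throughout, and the 6 germ cell markers to 116, 19.2 and 39.1 CPM. The part of these other cells in the level of Star was not tested.

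Star was found in part of the cells of each day. A Star UMI was detected in 921 of 2980 cells of day 4 (30.9%), 1010 of 2171 cells of day 7 (46.5%) and 679 of 973 cells of day 14 (69.8%). Deeper cells show more genes, and cells with Star were deeper than cells without it, with median depths of 5193 against 2280 (day 4), 5682 against 2228 (day 7) and 4410 against 1919.5 UMIs (day 14). Each cell was therefore also thinned at random to 1500 UMIs, which left out 753, 429 and 179 shallower cells of the 3 days. After thinning, Star was detected in 403 of 2227 cells of day 4 (18.1%, exact Clopper-Pearson 95% interval 16.5–19.8%), in 526 of 1742 cells of day 7 (30.2%, interval 28.0–32.4%) and in 429 of 794 cells of day 14 (54.0%, interval 50.5–57.5%). The order of the days was the same at both depths. With barcodes of a shared start summed, the thinned shares were 17.9%, 29.5% and 53.9%.

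**Figure D1:**
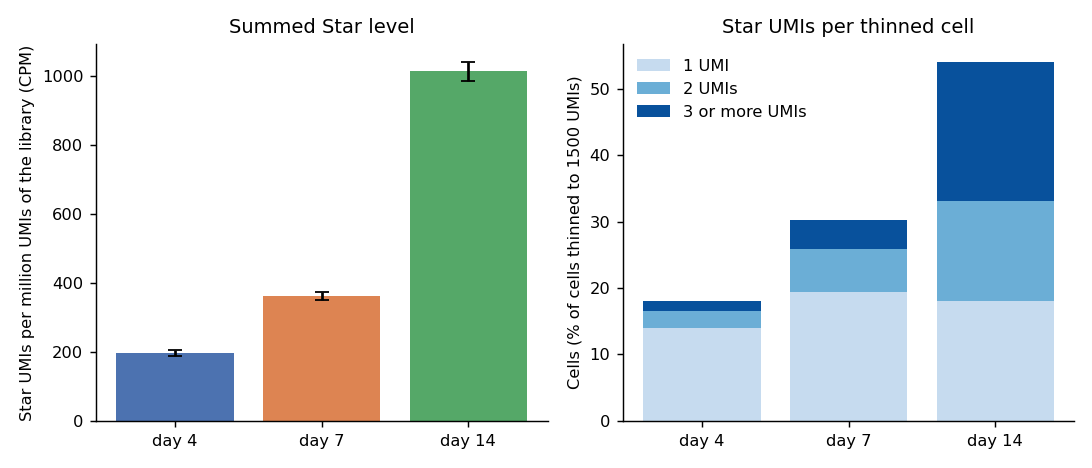
Left, summed Star level of each library in CPM, with exact Poisson 95% intervals as bars. Right, percent of the cells thinned to 1500 UMIs that held 1, 2 or at least 3 Star UMIs. The level goes from 197 to 362 to 1012 CPM, and cells with at least 3 Star UMIs make up 1.57%, 4.25% and 20.9% of the cells of days 4, 7 and 14.

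Most cells with Star held little of it on days 4 and 7. Among thinned cells of day 4, 13.9% held 1 Star UMI, 2.604% held 2 and 1.57% held 3 or more. On day 7 these shares were 19.3%, 6.60% and 4.25%, and on day 14 they were 18.0%, 15.1% and 20.9%. The share with exactly 1 UMI was thus much the same on days 7 and 14, and the days differed mainly in cells with more. The 10% of cells with the most Star UMIs held 69.9%, 64.6% and 54.5% of all Star UMIs on days 4, 7 and 14. The highest single cells of the 3 days held 52, 86 and 241 Star UMIs.

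Depth moved the share of cells far more than the level. When the cells of day 4 were divided into 4 equal parts by depth, the share with Star went from 12.1% in the shallowest part to 55.4% in the deepest, and the level from 141 to 221 CPM. On day 7 the share went from 22.7% to 73.5% and the level from 303 to 389 CPM. On day 14 the share went from 45.9% to 91.4% and the level from 795 to 1089 CPM. Within each part by depth, days 4, 7 and 14 kept the same order in both measures.

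Free RNA in a droplet can put UMIs into cells that do not express a gene, so cells that should lack Star were looked at. Only 8 cells of all days held at least 3 of the 6 endothelial markers (Pecam1, Cdh5, Kdr, Tie1, Vwf and Egfl7). None of the 8 held a Star UMI at a median of 3678.5 UMIs per cell, which allows a share of up to 37.5%. Of 7 cells with at least 3 macrophage markers, 2 held Star, at a median of 2123 UMIs. These cells are too few to set a background level, and 7 of each kind lie in a mixed cluster described below.

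On days 4 and 7, almost all thinned cells with Star showed no UMI of Cyp11a1 or Insl3. Thinning limits this reading, since Cyp11a1 was detected in 73.9% of the thinned cells of the Leydig-like cluster described below. Among thinned cells with Star on day 4, 9 of 403 held Cyp11a1 (2.23%, interval 1.03–4.20%) and 5 of 403 held Insl3 (1.24%). On day 7, 23 of 526 held Cyp11a1 (4.37%, interval 2.79–6.49%) and 12 of 526 held Insl3 (2.28%). On day 14, 246 of 429 held Cyp11a1 (57.3%, interval 52.5–62.1%) and 321 of 429 held Insl3 (74.8%, interval 70.4–78.9%). With barcodes of a shared start summed, Cyp11a1 was in 1.201%, 3.34% and 54.2% of the cells with Star on the 3 days.

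Seen from the side of Cyp11a1, co-detection with Star was high on every day. Of the thinned cells with Cyp11a1, 9 of 10 held Star on day 4 (interval 55.5–99.7%). It was in 23 of 30 on day 7 (76.7%, interval 57.7–90.1%) and 246 of 373 on day 14 (66.0%, interval 60.9–70.8%). With barcodes of a shared start summed, these were 4 of 5, 13 of 19 and 161 of 251. Without thinning, the 37 cells of day 4 in the mixed cluster described below held 226 of that day's 247 Cyp11a1 UMIs. On day 7, clusters 5 and 11 held 236 and 282 of 660. In cells without Cyp11a1, the share with Star was 17.8% on day 4, 29.4% on day 7 and 43.5% on day 14. Cells with Cyp11a1 or Insl3 held Star more often than cells without on each day, but they were too few on days 4 and 7 to hold much of it. Without thinning, cells with neither transcript held 2317 of the Star UMIs of day 4 (92.8%), 3831 of those of day 7 (91.1%) and 174 of those of day 14 (3.23%).

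**Figure D2:**
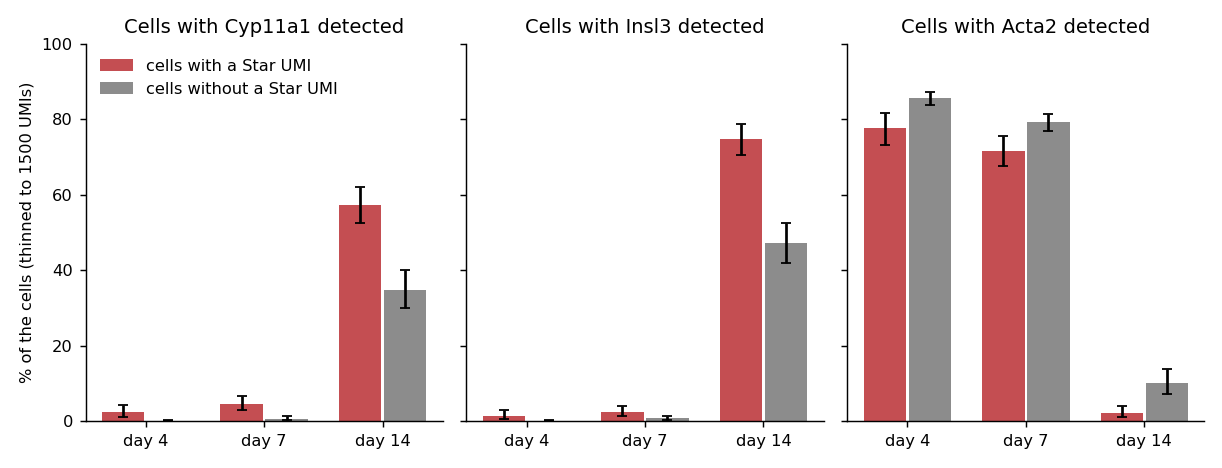
Percent of cells, each thinned to 1500 UMIs, in which Cyp11a1, Insl3 or Acta2 was detected, among cells with a Star UMI (red) and without (grey) on days 4, 7 and 14. Error bars are exact Clopper-Pearson 95% intervals. Cyp11a1 and Insl3 stay under 5% of the cells with Star on days 4 and 7 and reach 57.3% and 74.8% on day 14, while Acta2 goes from 77.7% and 71.7% to 2.10%.

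Acta2 was in most cells with Star on days 4 and 7 and in few on day 14. Among thinned cells with Star, 313 of 403 held Acta2 on day 4 (77.7%, interval 73.3–81.6%), 377 of 526 on day 7 (71.7%, interval 67.6–75.5%) and 9 of 429 on day 14 (2.10%, interval 0.964–3.95%). Among cells without Star the shares were 85.6%, 79.3% and 10.1%, higher on each day. Without thinning, the order on days 4 and 7 turned, with Acta2 in 90.1% of cells with Star against 87.4% of cells without on day 4 and in 83.8% against 80.9% on day 7. The depths of 5193 against 2280 and 5682 against 2228 UMIs go with this turn, and the thinned values are the ones at equal depth.

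The 4 transcripts were rarely found together. Star, Cyp11a1, Insl3 and Acta2 were all detected in 1 cell of day 4, 7 cells of day 7 and 15 cells of day 14 without thinning, and the 15 cells of day 14 had a median of 13270 UMIs. Cells with Acta2 and neither Cyp11a1 nor Insl3 made up 821 of the 921 cells with Star on day 4 (89.1%), 829 of 1010 on day 7 (82.1%) and 9 of 679 on day 14 (1.33%). On days 4 and 7 such cells were about as common among all cells, at 2616 of 2980 and 1760 of 2171, so these shares are not particular to cells with Star.

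Cells with more Star on day 7 had less Acta2 and more Cyp11a1. Thinned cells of day 7 with 0, 1, 2 and at least 3 Star UMIs had Acta2 at 3042, 2564, 2041 and 1838 CPM. In the same order, Cyp11a1 was at 23.6, 73.2, 180 and 1441 CPM. Of the 74 cells with at least 3 Star UMIs, 16.2% held Cyp11a1 and 60.8% held Acta2, so in most cells at the top of the Star range no Cyp11a1 UMI was detected at this depth. Postn, which encodes the matrix protein periostin, was at 447, 413, 452 and 396 CPM and showed no such trend. Mki67, a gene of dividing cells, was at 137 CPM in cells without Star and at 61.3, 17.4 and 18.0 CPM in cells with it. The values of 17.4 and 18.0 CPM rest on 3 and 2 UMIs, where a count of 0 allows 17.4 and 27.0 CPM.

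The cells of all days were clustered together without Star and the 50 other genes of the lists used here, which gave 12 clusters, and clusters were named after marker lists that the study took in part from these libraries. Cluster 1 was ECM myofibroblast-like, for myofibroblasts that make extracellular matrix, with Postn, Tnc and Ltbp2 among its 10 leading genes. It held 1251 of the 2171 cells of day 7. In these cells Star stood at 435 CPM (3082 UMIs, interval 420–451), which is 73.3% of the day's Star UMIs in 57.6% of its cells. Cyp11a1 and Insl3 had 5 UMIs each in the same cells, or 0.706 CPM, and Acta2 stood at 3078 CPM.

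Among the clusters of day 7 with at least 50 cells, cluster 1 had the highest Star level. Proliferating progenitor-like cells (cluster 3, 234 cells on day 7) had 118 CPM, so cluster 1 stood at 3.67 times their level (interval 3.13–4.34). Cluster 9, led by genes of DNA replication (197 cells), had 180 CPM, and unnamed cluster 7, led by Cilp, Eln and Mfap4 (330 cells), had 210 CPM. Cluster 1 stood at 2.41 and 2.08 times these levels. After thinning, 36.8% of cluster 1 cells held Star (interval 33.8–39.8%), against 12.6% of cluster 3 (interval 8.34–18.1%), 19.9% of cluster 9 and 20.2% of cluster 7. Under each other clustering tried, cells named ECM myofibroblast-like stood above those named proliferating progenitor-like, at 2.92 to 3.89 times. With barcodes of a shared start summed, the ratio was 3.02. The names were given anew in each clustering, so these ratios do not compare the same cells. At resolution 1.2, groups with 661 and 48 cells of day 7 had the former name. A group with 576 cells of day 7, led by Grem1, stayed unnamed there and was left out. With the list genes kept in the clustering, a group led by Grem1 with 559 cells of day 7 was left out likewise. With 10 components, so was an unnamed group with 452 cells of day 7, led by Lyz2, whose nearest list was that of ECM myofibroblasts.

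A few cells of day 7 had Star together with Leydig cell genes. The 33 day 7 cells in the differentiating Leydig-like cluster 5 had Star at 859 CPM (interval 715–1023) and Cyp11a1 at 1621 CPM. A further 19 cells of day 7 in unnamed cluster 11 had Star at 4254 CPM and Cyp11a1 at 7790 CPM. The leading genes of cluster 11 mix Lyz2, a macrophage gene, with Prm1 and Tnp1, genes of spermatids, and it also holds 37 cells of day 4 with Star at 930 CPM. Together these groups held 2.97% and 3.66% of the Star UMIs of day 7, far less than cluster 1.

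**Figure D3:**
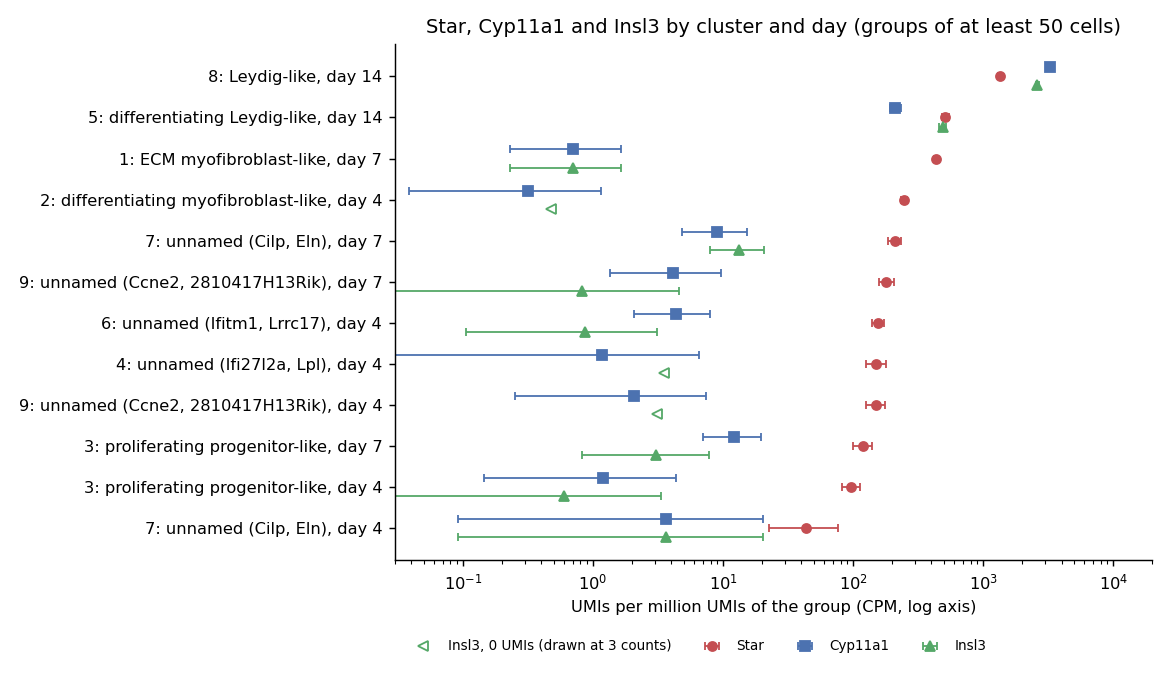
Star, Cyp11a1 and Insl3 in CPM (log axis) in each group of a cluster and a day with at least 50 cells, ordered by Star, with exact Poisson 95% intervals, and with open triangles at 3 counts where no Insl3 UMI was seen. Star spans 43.6 to 1336 CPM over the groups, while Cyp11a1 goes from 0.317 CPM in the myofibroblast-like group of day 4 to 3247 CPM in the Leydig-like group of day 14.

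Among the day 4 clusters with at least 50 cells, Star was highest in the differentiating myofibroblast-like cluster 2 (1215 cells), in which interferon-response genes such as Isg15 and Ifit1 were among the leading genes. It stood at 245 CPM there (interval 233–258), which is 2.54 times the 96.7 CPM of day 4 cells in the proliferating progenitor-like cluster (interval 2.16–3.00). Cluster 2 held 1550 of the day's Star UMIs (62.1%) in 40.8% of its cells, with 2 Cyp11a1 UMIs and no Insl3 UMI in all. Clusters 4 and 6 of day 4 had 151 and 156 CPM. On day 14, the Leydig-like cluster 8 (424 cells) had 1336 CPM, 2.62 times the 510 CPM of the differentiating Leydig-like cluster 5 (520 cells, interval 2.44–2.81).

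Over the 12 groups of a cluster and a day with at least 50 cells, Star was ordered from Leydig-like cells of day 14 (1336 CPM) through differentiating Leydig-like cells of day 14 (510 CPM), ECM myofibroblast-like cells of day 7 (435 CPM) and differentiating myofibroblast-like cells of day 4 (245 CPM) to cluster 7 of day 7 (210 CPM). Each of the first 4 stood above the next by more than counting error, with the ratio of the second to the third at 1.17 (interval 1.09–1.26). From rank 5 (210 CPM) down to 96.7 CPM, the ratio of each group to the next had an interval that includes 1. The lowest group was cluster 7 of day 4, at 43.6 CPM. Groups of a day share a library, so this order describes these 3 libraries.

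Of the 3 clusters with at least 50 cells on both day 4 and day 7, clusters 3 and 9 had a smaller ratio of Star between these days than the whole libraries, and cluster 7 had a larger one. In proliferating progenitor-like cells it stood at 118 CPM on day 7 against 96.7 CPM on day 4, a ratio of 1.22 (interval 0.976–1.53). In cluster 9 the ratio was 1.21 (interval 0.975–1.501), and in cluster 7 it was 4.81 (interval 2.71–9.41), from 43.6 to 210 CPM. The whole libraries differed by a ratio of 1.84. The clusters with most Star UMIs, 1 and 2, were each nearly confined to 1 day and allow no such comparison.

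The number of Star UMIs for each Cyp11a1 UMI differed widely between the groups, without a clear gap. It was 616 in ECM myofibroblast-like cells of day 7 (interval 264–1900) and 775 in differentiating myofibroblast-like cells of day 4 (interval 214–6405). It was 0.412 in Leydig-like cells of day 14 (interval 0.397–0.426) and 0.530 in the differentiating Leydig-like cells of day 7 (interval 0.423–0.661). The part of free RNA in these values was not tested. The values of 616 and 775 rest on 5 and 2 Cyp11a1 UMIs. Differentiating Leydig-like cells of day 14 lay between, at 2.42 (interval 2.15–2.73). Cluster 3 also lay between, at 9.75 on day 7 and 81 on day 4. So did cluster 9, at 43.6 on day 7 and 72.5 on day 4. Cluster 7 of day 7 stood at 23.3, and clusters 6 and 4 of day 4 at 36.1 and 129.

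Star has a close neighbour on the chromosome. The 3′ end of Ash2l, a gene of histone methylation on the minus strand, lies 13 bases beyond the end of Star, and the sources do not say whether strand was used in counting. Ash2l was at 49.0, 46.4 and 34.9 CPM on days 4, 7 and 14, and at 44.2 CPM in ECM myofibroblast-like cells of day 7 and 34.9 CPM in Leydig-like cells of day 14. Its level thus did not follow that of Star, but whether reads of either gene were counted for the other was not tested.

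Ranking the cells of a day by Acta2 CPM, which uses neither Star nor Cyp11a1, gave 3 equal parts. On day 4, Star was at 263 CPM in the part lowest in Acta2, 230 CPM in the middle and 108 CPM in the highest. On day 7 it was at 500, 364 and 251 CPM in the same order. The part lowest in Acta2 thus had 2.43 times the Star level of the highest on day 4 (interval 2.18–2.72) and 1.995 times on day 7 (interval 1.84–2.16). Cyp11a1 was at 39.98, 20.9 and 1.128 CPM in these parts on day 4 and at 202, 0.9403 and 0.483 CPM on day 7. Few cells held it, at 1.61%, 0.302% and 0.503% of the parts of day 4 and 5.94%, 0.415% and 0.276% of those of day 7. The middle and highest parts of day 7 had 4 and 2 Cyp11a1 UMIs. The 0.483 CPM lies under the 0.725 CPM of 3 counts.

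Star was thus detected where Cyp11a1 had few UMIs. In the part of day 7 highest in Acta2, 1037 Star UMIs stood beside 2 of Cyp11a1 and 1 of Insl3, and 45.2% of its cells held Star. Nr5a1, the nuclear receptor that activates steroidogenic genes, was at 31.8, 18.6 and 17.2 CPM across the parts of day 7. The ratio depended on the genes used for ranking, on day 4 and on day 7. Ranked by Tagln, Myl9, Tpm2 and Cnn1 in place of Acta2, the highest part stood at 0.911 times the Star level of the lowest on day 4 (interval 0.826–1.01) and at 0.738 times on day 7 (interval 0.683–0.798), against 0.411 and 0.501 with Acta2. On day 14 only 90 of 973 cells held Acta2, so the order of the other cells was arbitrary and followed their place in the table. The parts of that day had Star at 1093, 1041 and 718 CPM and Cyp11a1 at 2465, 1864 and 1060 CPM, from lowest to highest, and median depths of 9005.5, 2740 and 1443 UMIs.

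**Figure D4:**
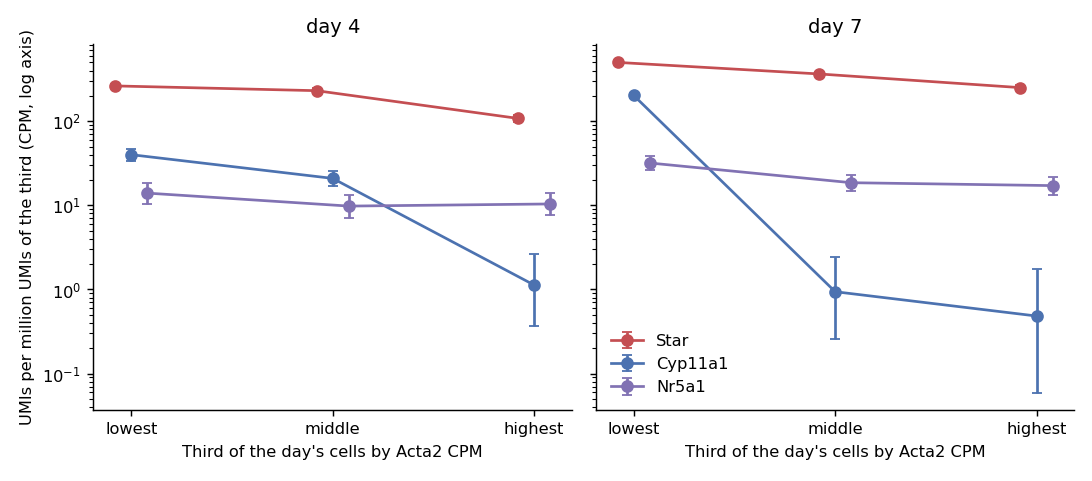
Star, Cyp11a1 and Nr5a1 in CPM (log axis) in 3 equal parts of the cells of day 4 and day 7, ranked by Acta2 CPM, with exact Poisson 95% intervals. From the lowest to the highest part, Star goes from 263 to 108 CPM on day 4 and from 500 to 251 CPM on day 7, and Cyp11a1 from 39.98 to 1.128 CPM and from 202 to 0.483 CPM. Cyp11a1 was in 1.61% and 0.503% of the cells of these parts on day 4 and in 5.94% and 0.276% on day 7.

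The other genes of the pathway were read from 6 lists of 51 genes in all, with Star among them. From day 4 to day 7, 46 of the 51 had at least 20 UMIs over the pair of days. Of these, 3 were at least 2-fold higher (Cyp11a1, Cyp17a1 and Insl3) and 0 at least 2-fold lower, where over all 12954 genes counted 2.25% were higher and 2.76% lower by that much. Cyp17a1, the enzyme that makes androgen precursors, had 2 UMIs on day 4 and 27 on day 7. Star itself, at 1.84 times, stayed under 2-fold. The median log2 ratio was 0.00 over the lists and 0.09 over all genes counted.

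From day 7 to day 14, 17 of 48 list genes counted were at least 2-fold higher and 8 at least 2-fold lower. Over all 12656 genes counted, 10.1% were higher and 14.0% lower by that much. Of the 10 steroidogenic enzymes and redox partners, 8 were higher and none lower, with a median log2 ratio of 3.15. Hsd3b1, the enzyme that follows Cyp11a1, stood at 87.6 times its day 7 level (20.2 to 1770 CPM) and Cyp17a1 at 369 times. Fdx1 and Fdxr, which carry electrons to the mitochondrial enzymes, stood at 9.17 and 8.94 times. Star, at 2.80 times, thus stood closer to its day 7 level than each of these 8 enzymes except Cyb5a, a partner of CYP17A1, at 2.72 times.

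The relatives of Star, which share its cholesterol-binding START domain, differed less between days 7 and 14. Stard5 stood at 2.20 times its day 7 level on day 14 (interval 1.68–2.89), at 9.63 against 21.2 CPM. Stard4, a carrier of cholesterol in the cytosol, was at 95.5, 74.2 and 68.4 CPM on the 3 days, and Stard3 at 9.23, 10.1 and 11.8 CPM. Stard6 was at 1.03, 2.06 and 0.939 CPM, the last from 5 UMIs. For Stard3, the intervals of both steps include 1 (0.844–1.43 for day 7 over day 4 and 0.845–1.60 for day 14 over day 7), as does that of day 7 over day 4 for Stard5 (0.838–1.44). Stard4 stood at 0.777 times its day 4 level on day 7 (interval 0.711–0.849), and its ratio of day 14 to day 7 had an interval of 0.813–1.04.

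Of the 12 genes of mitochondrial cholesterol import and its control, 1 was at least 2-fold higher on day 14 and 2 were lower, which is near the 10.1% and 14.0% over all genes counted and so is no result about the list. The higher was Prkaca, a catalytic subunit of the cAMP-dependent kinase, at 2.28 times. The lower were Prkar2a, a regulatory subunit of that kinase, at 0.334 times, and Vdac2, a channel of the outer membrane, at 0.344 times. Tspo, which binds cholesterol in the outer mitochondrial membrane, was at 536, 463 and 273 CPM, a course opposite to that of Star.

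Among known regulators of Star transcription, Nr5a1 stood at 11.2, 21.8 and 136 CPM on the 3 days. Day 7 stood at 1.94 times day 4 (interval 1.58–2.40) and day 14 at 6.24 times day 7 (interval 5.40–7.23). Gata6 and Fos were at least 2-fold higher on day 14 (6.34 and 6.81 times) and Jun was lower (0.355 times). Nr2f2, which encodes COUP-TFII, stood at 0.512 times and Gata4 at 2.02 times, and with the pseudocount of 1 CPM both lay just inside 2-fold. Nr5a2, Nr0b1 and Nr4a3 had fewer than 20 UMIs over both days.

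For the Leydig hormone and receptors, Insl3, Lhcgr and Prlr were at least 2-fold higher on day 14. Lhcgr, the receptor for luteinizing hormone, had 11 UMIs on day 7 and 208 on day 14. All 5 contractile genes were lower, from 0.409 times for Myl9 to 0.0261 times for Tagln, and Cnn1 went from 309 UMIs to 0.

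**Figure D5:**
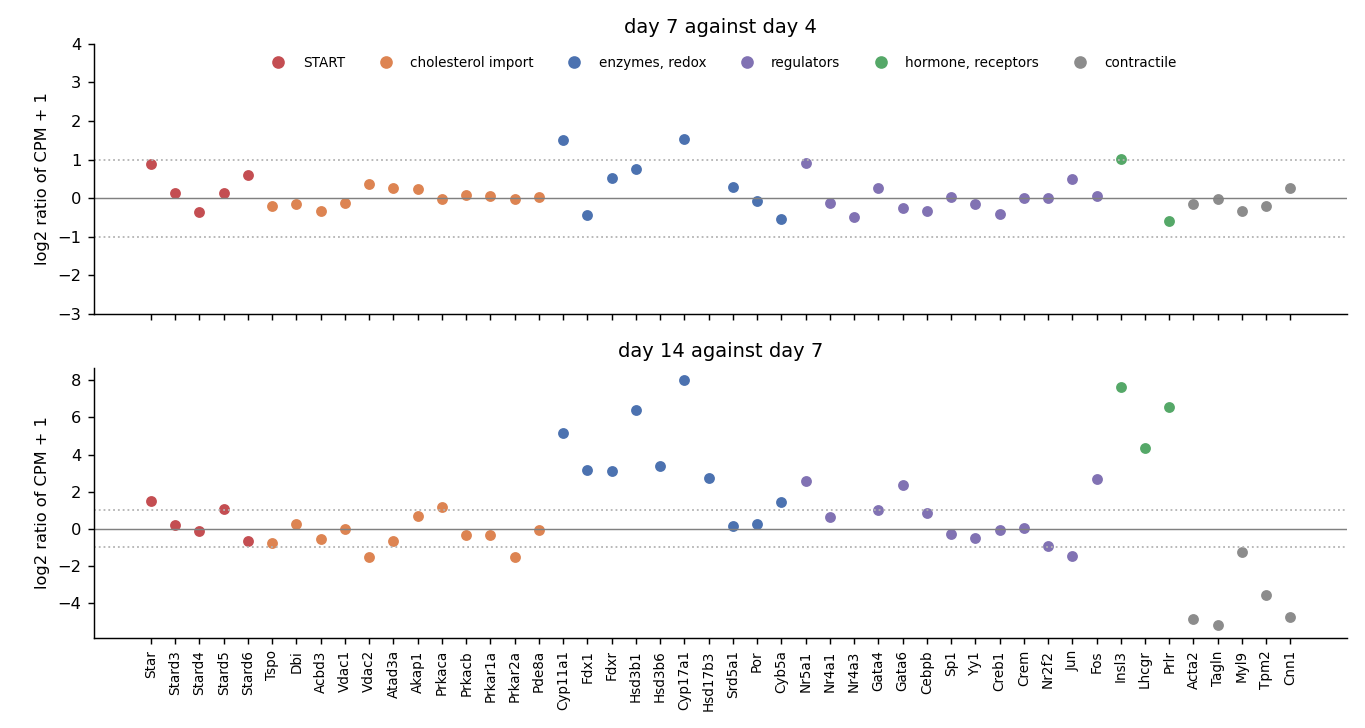
Log2 ratio of CPM (pseudocount of 1 CPM) for the list genes reported here with at least 20 UMIs over the pair of days, day 7 against day 4 above and day 14 against day 7 below, colored by list, with dotted lines at 2-fold. Above, 3 genes lie past 2-fold, and below, 17 lie past it upwards and 8 downwards, with Star at 0.87 and 1.48.

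The Leydig-like cells of day 14 and the ECM myofibroblast-like cells of day 7 both had Star, at 1336 and 435 CPM, a ratio of 3.07 (interval 2.93–3.22). Set against each other, 18 of 47 list genes counted were at least 2-fold higher in the Leydig-like cells and 9 lower, where 11.6% and 16.3% of all 11598 genes counted were so. Cyp11a1 stood at 4599 times (interval 1970–14168, from 5 UMIs in the myofibroblast-like cells), Fdx1 at 17.3 times, Fdxr at 20.6 times and Nr5a1 at 10.6 times (interval 8.75–13.02). Lhcgr had 199 UMIs in the Leydig-like cells and 0 in the myofibroblast-like cells, where 0 UMIs allow up to 0.424 CPM. Star thus differed less than each of these genes, which were chosen after values were seen. Among the list genes at least 2-fold higher, Stard5 (2.12 times), Gata4 (2.46 times) and Prkaca (2.48 times) differed less than Star. The rest of them differed as much as Star or more.

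ECM myofibroblast-like cells were also set against the proliferating progenitor-like cells of the same day. Of 40 list genes, 4 were at least 2-fold higher, Star with the regulators Nr4a1, Gata6 and Fos, and 1 lower, Cyp11a1. Star was chosen because it is seen in such cells, so this count is no result about the lists. Of all 11056 genes counted, 5.15% were higher and 5.49% lower by that much. Nr4a1, a nuclear receptor that acts on the Star promoter, stood at 6.78 against 1.52 CPM, and Gata6 at 4.38 against 1.52 CPM. The lower values rest on 2 UMIs each and lie under the 2.28 CPM of 3 counts, so no fold is given for them. Nr5a1 stood at 17.4 CPM and 13.7 CPM (ratio 1.27, interval 0.772–2.22), so no difference was detectable for it at this depth.

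Within the ECM myofibroblast-like cells of day 7, 375 thinned cells with Star were set against 645 without. Of 31 list genes with enough UMIs, 1 was at least 2-fold higher (Akap1, 17 against 14 UMIs, interval of the ratio 0.969–4.58) and 0 lower, where 1.04% and 2.04% of 7211 genes counted were so. None of the 10 markers of this cell type was past 2-fold in either direction, with a median log2 ratio of −0.03. Postn was at 489 CPM in cells with Star and 533 CPM in cells without, Col5a2 at 1140 and 1163 CPM. Acta2 stood at 2645 CPM in cells with Star and 3540 CPM in cells without (ratio 0.747, interval 0.703–0.794), and Stard4 at 37.3 against 70.3 CPM (ratio 0.531, interval 0.309–0.877). Nr5a1 had 15 UMIs against 18, which is 1.43 times per UMI counted (interval 0.672–3.01). Cyp11a1 had 1 UMI in each set, and Hsd3b1 and Cyp17a1 had none.

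Over all cells of day 7, the genes with the highest ratio of thinned cells with Star to cells without were Hsd3b1 at 27.3 times (59 against 5 UMIs, interval 11.1–87.1), Cyp11a1 at 12.3 times (interval 8.82–17.4), Adh1 at 8.46 times, Mrap at 4.93 times and Srgn at 2.47 times. Adh1 is a marker of Leydig cells in the lists used here, and Mrap encodes an accessory protein of melanocortin receptors. Cyp11a1 was in 4.37% of the cells with Star, and Hsd3b1 was in 19 thinned cells of day 7 in all. The ratios of Cyp11a1 and Hsd3b1 thus describe a small part of the cells with Star. The share of these cells with Adh1, Mrap or Srgn was not counted. Only genes of at least 50 CPM in the cells with Star were ranked. Genes thus entered through the set in which they were high, and the intervals do not cover this choice.

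The genes whose course over the 3 days was nearest to that of Star were Hadh, Fuca1, Cpxm1, Dcxr and Atp6ap1. Their centred log2 profiles differed from that of Star by a root mean square of 0.037 to 0.088 among 4051 genes ranked. The genes ranked had at least 50 CPM on at least 1 day. Fuca1, which encodes a lysosomal fucosidase, was at 88.7, 156 and 467 CPM, and Hadh, an enzyme of mitochondrial fat oxidation, at 22.5, 39.4 and 116 CPM. With 3 points, many genes can lie near any course.

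Over the 12 groups of a cluster and a day, the highest Pearson's r with Star on the scale of log2(CPM + 1) belonged to March8 (0.926), Dad1 (0.911), Calr (0.911), Cox6a1 (0.903) and Swi5 (0.899). Calr, which encodes calreticulin of the endoplasmic reticulum, was at 3417 and 3147 CPM in the Leydig-like and differentiating Leydig-like cells of day 14, against 1470 to 2445 CPM in the other groups. Hsd3b1 reached 0.7999, Insl3 0.699 and Cyp11a1 0.690, the last at rank 291 of 4051, and Acta2 had −0.631. The groups share 3 libraries and their depth, so these are descriptions. Many genes outside the pathway thus had a higher r with Star than Cyp11a1 did. The r of Cyp11a1 rests in part on groups with few of its UMIs, which limits this comparison. It had 2 UMIs in differentiating myofibroblast-like cells of day 4 (0.317 CPM) and 5 in ECM myofibroblast-like cells of day 7 (0.706 CPM). Insl3 had none in the former.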

How the data were processed

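The members and lists were chosen with earlier results of these data known. Drop-seq libraries of days 4, 7 and 14 (1 per day) shared a sequencing batch. Reads were aligned by the authors to GRCm38 with STAR (version 2.5.2a in the submitters' processing notes, beside Picard 2.6.0 and SAMtools 1.2) and UMIs counted with Drop-seq tools, and the deposited values are raw counts. The paper's methods name another STAR version, and this difference was not resolved. The annotation release is not given in the sources used here, so genes were matched by symbol, and positions come from GENCODE M21.

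The merged table was used. Its 495 columns of day 0 cells entered no step, and its other 6124 columns were compared with the tables per day, with 0 entries that differed. Its cells had over 500 genes (lowest 501) and under 10% mitochondrial UMIs (highest 9.93%). Libraries held 12677110, 11627440 and 5324400 UMIs.

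Levels are summed UMIs over all UMIs of the cells, times 1000000 (CPM), with exact Poisson intervals at 95%, and shares carry exact Clopper-Pearson intervals. A count of 0 allows 3 counts. Between genes, CPM were not compared as levels. Log2 ratios used a pseudocount of 1 CPM and at least 20 UMIs. Clustering in scanpy 1.11.5 with leidenalg 0.10.2 used 2000 variable genes, 20 components, 20 neighbours and resolution 0.8, without the 51 list genes. A cluster received a name with a median log2 ratio of at least 0.5 over a list, at least 6 markers raised 1.5-fold (10 UMIs or more) and at least 1 marker among the 10 leading genes, with no marker of another list there. These thresholds were set after the clusters had been seen, so differences from the study may come from rebuilt names. No doublets were removed. Alternatives leave out the 6% of cells with the highest Scrublet doublet score or the greatest depth.

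Named genes are Star, the 3 co-detected genes, the lists, and the 5 nearest genes by day profile, by correlation over groups and by the ratio of day 7 cells with to without Star. Other named genes, the comparisons between clusters and the Star to Cyp11a1 ratio were chosen after values were seen. The values of 1 list gene are not reported here, although counts over the lists include it. The 2-fold calls between days and the coverage of the intervals were tested on simulated data. Thinning and the summing of barcodes were checked on the cells themselves. Clustering, naming, co-detection and the other steps were not tested on simulated data. Python 3.11.15, numpy 2.4.6, scipy 1.17.1, pandas 2.3.3 and matplotlib 3.10.9 were used with seed 1.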

Additional observations from a re-analysis of the deposited data

Results flagged for a closer look

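Barcodes of the counts per day that are not in the merged table held Star above the 3 counts that a count of 0 allows, which marked them for a closer look because no comparison above uses them. Most had under 500 genes (307 of 320 on day 4, 201 of 229 on day 7 and 313 of 327 on day 14). Star stood at 124 CPM in those of day 4 (20 UMIs, exact Poisson 95% interval 76.0–192), at 292 CPM in those of day 7 (35 UMIs, interval 204–407) and at 929 CPM in those of day 14 (115 UMIs, interval 767–1115), which is the same order as in the filtered cells. Cyp11a1 had no UMI in those of days 4 and 7, where 0 allows up to 18.7 and 25.1 CPM, and stood at 2568 CPM in those of day 14.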

How the results depend on the processing

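Of 124 values recomputed for 23 results, 94 stayed within the counting interval of the reported value or, for counts of genes, within 1.5 times of it, 26 moved beyond that and 4 turned in direction. The ratios of Star between days were among those that stayed, with every barcode kept, with the stricter cell filter, with equal weight per cell, with no mitochondrial UMIs in the denominator, and without the 6% of cells of highest doublet score or depth, at 1.82 to 1.92 times (day 7 to day 4) and 2.71 to 2.83 times (day 14 to day 7). The share of cells with Star on days 4, 7 and 14 moved with the depth, to 13.3%, 21.3% and 47.3% thinned to 1000 UMIs, 22.2%, 34.7% and 63.9% thinned to 2000 UMIs, and 30.9%, 46.5% and 69.8% without thinning. With at least 2 UMIs required and no thinning it was 14.3% on day 4 and 28.0% on day 7, and under the stricter filter it was 58.5% on day 14. The days kept their order in each of these.

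The difference in the share of cells with Acta2, cells with Star minus cells without, turned from −7.97 to 2.75 points on day 4 and from −7.60 to 2.88 on day 7 without thinning, and to 3.78 and 7.83 with at least 2 UMIs required. On day 14 it moved from −8.04 to −4.11 at 1000 UMIs. On day 14 the difference for Insl3 moved from 27.7 to 36.2 points without thinning and 46.0 with at least 2 UMIs, and that for Cyp11a1 from 22.5 to 35.4 with at least 2 UMIs. The Star ratio of the highest over the lowest part by Acta2 moved from 0.411 to 0.329 on day 4 and from 0.501 to 0.430 on day 7 with 4 parts, and to 0.911 and 0.738 ranked by Tagln, Myl9, Tpm2 and Cnn1, and the cause was not tested.

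Between clusters, the day 7 ratio of ECM myofibroblast-like to proliferating progenitor-like cells moved from 3.67 to 2.92 at resolution 0.4 and to 3.02 with barcodes merged on 11 bases, an alternative chosen after seeing the data. The day 4 ratio moved from 2.54 to 1.81 at resolution 0.4, and the day 14 ratio from 2.62 to 2.85 with 30 components and 2.93 with merged barcodes, and resolution 0.4 gave no value for day 14. With a pseudocount of 10 CPM, 1 list gene in place of 3 was at least 2-fold higher on day 7 than on day 4. With 1 library per day no library could be left out. No paired analysis was possible because each day has 1 sample and no result comes from a test.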

Other observations

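On days 4 and 14, the genes with the highest ratio of thinned cells with Star to cells without were other genes than on day 7, apart from Cyp11a1, and they are named after their values were seen. Again only genes of at least 50 CPM in the cells with Star were ranked, and the intervals do not cover this choice. Trps1 on day 4 and Mapk13 and Nabp1 on day 14 lay just above this limit, at 51.3, 54.4 and 52.8 CPM. On day 4, beside Cyp11a1 (34 against 1 UMI), they were Trps1 at 2.42 times (interval 1.51–3.80), Gsta2 at 2.39 times, Gpx3 at 2.33 times and Angptl4 at 2.21 times. Gsta2 and Gpx3 are Leydig and differentiating Leydig markers in the lists used here. On day 14 they were Mapk13 at 9.93 times (35 against 3 UMIs, interval 3.13–50.4), Ly6d at 9.02 times (interval 3.63–28.9), Nabp1 at 7.23 times, Cited2 at 3.07 times (83 against 23 UMIs) and Ccl2 at 3.08 times. No enzyme of steroid synthesis was among the 5 of day 14, and Cyp11a1 stood at 2000 CPM in cells with 1 Star UMI, 2389 CPM with 2 and 2165 CPM with 3 or more, against 1421 CPM in cells with none.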
